A study of Mus musculus with 28 samples.

Results

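The collagen chain genes were every gene whose mouse symbol is Col, a number, the letter a and a number with nothing after it, once the Ensembl identifiers of the count tables had been matched to symbols. They numbered 44 of 47643 gene rows and held 7630 of the 2263832 reads assigned to genes. By the type of collagen that each chain builds, 11 were fibrillar, 6 belonged to type VI, 6 to the basement membrane collagen type IV, 9 to the fibril-associated collagens, 2 to the multiplexins, 4 to the transmembrane collagens and 6 to network-forming or other types. At least 1 read was found for 38 of them, and none for Col6a5, Col10a1, Col11a2, Col22a1, Col24a1 and Col28a1.

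The libraries came from freshly sorted cells of H2B-GFP mice, which carry a histone H2B fused to green fluorescent protein. Such a label binds chromatin and is diluted as a cell divides, so it is used to find cells that divide rarely. GFP-positive (GFP+) and GFP-negative (GFP-) thyroid cells were each sampled from mice of 3 months (4 libraries per fraction), 6 months (4) and 9 months (3), and salivary gland cells from mice of 9 months (3 per fraction), which gave 28 libraries in 8 groups. Every group, controls included, carried H2B-GFP. The promoter that drives the transgene, the labelling and chase, the sorting gate, and the strain, sex and pooling of the mice are not given in the sources used here. Replicates are numbered, but nothing says that they came from separate mice, so each p-value measures no more than how far these libraries spread, which may be technical.

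The libraries were shallow and uneven. Reads in genes ran from 507 to 209091 per library, and 6 libraries had fewer than 10000: replicates 1 and 2 of the GFP+ thyroid at 3 months, replicate 2 of the GFP- and replicate 4 of the GFP+ thyroid at 6 months, replicate 1 of the GFP- thyroid at 9 months and replicate 1 of the GFP+ salivary gland. Levels are given as CPM, the usual scaling of a count by the library's reads in genes, where a single read is worth 4.78 CPM in the deepest library and 1972 CPM in the shallowest. The kit reads the 3′ end of each transcript, so CPM was not divided by gene length. In sorted bulk samples, fewer cells of a type and less RNA per cell cannot be told apart.

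Collagens are secreted or membrane-bound proteins in which chains wind into a triple helix. The fibrillar types I, III and V form the tensile fibrils of connective tissue and are made mainly by fibroblasts, type VI forms beaded filaments around cells, and type IV forms the sheet under epithelia and around blood vessels. In the thyroid, type IV lies around each follicle and around the dense capillary net between follicles, while fibrillar collagen fills the capsule and the septa.

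Collagen reads made up a larger part of the GFP+ thyroid libraries than of the GFP- ones, and the kind of collagen differed. With the reads of each group summed, all collagens together stood at 2147 CPM at 3 months, 1019 CPM at 6 months and 3256 CPM at 9 months in the GFP- thyroid. In the GFP+ thyroid the sums were 7182, 5392 and 6535 CPM. At 3 months GFP+ replicate 4 held 1292 of the 1444 collagen reads. GFP+ replicate 2 of that age stood at 1526 CPM, within the GFP- range of 1430 to 2470 CPM. At 6 and 9 months every GFP+ library was above every GFP- library of its age. Fibrillar chains took 62.9% (95% exact binomial interval 60.3 to 65.4), 62.0% (59.8 to 64.2) and 60.1% (58.0 to 62.2) of collagen reads in GFP+ thyroid cells of 3, 6 and 9 months. In the GFP- thyroid they took 23.1% (20.2 to 26.2), 36.3% (31.4 to 41.5) and 48.1% (44.8 to 51.5). All intervals cover counting error only. Type IV chains made up 45.4%, 29.0% and 18.1% of collagen reads in the GFP- thyroid and 7.48%, 7.68% and 6.38% in the GFP+ thyroid. The transmembrane collagens took 12.8%, 11.5% and 3.54% in GFP- cells and 0.208%, 0.675% and 0.667% in GFP+ cells. Over the libraries with at least 30 collagen reads, the fibrillar share ran in GFP- cells from 17.5% to 28.03% at 3 months, from 31.7% to 53.5% at 6 months and from 40.8% to 54.2% at 9 months. In GFP+ cells it ran from 50.4% to 63.9%, from 60.5% to 63.5% and from 57.1% to 61.8%. In this share single libraries of the fractions overlapped across ages, but not within an age.

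**Figure D1:**
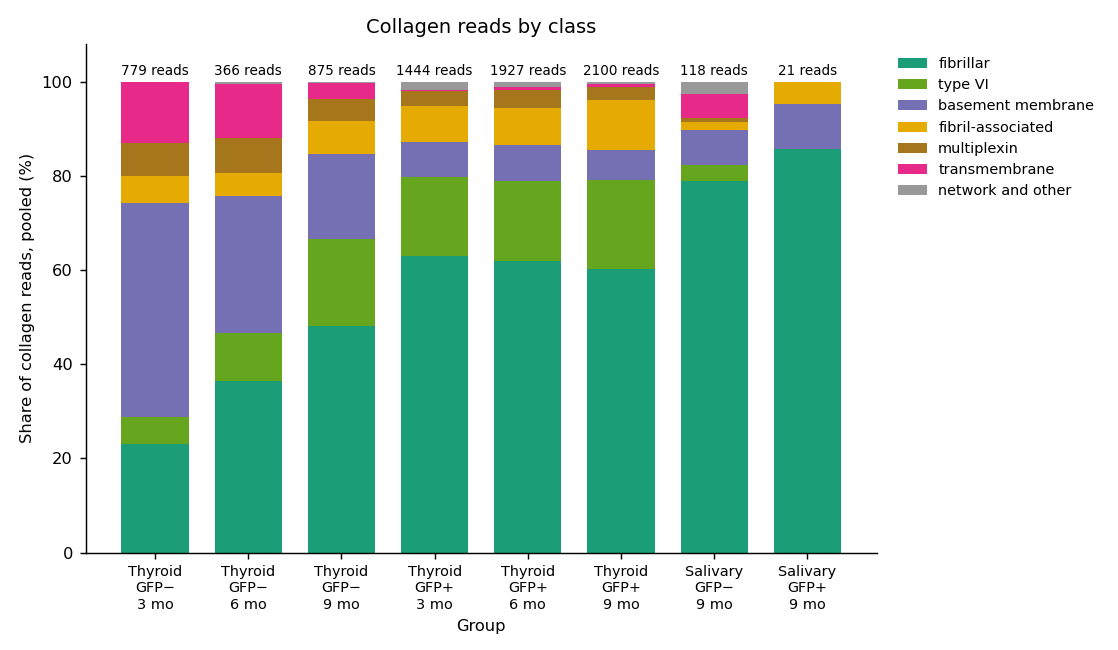
Share of collagen reads by class (y axis, percent of the summed collagen reads) in each of the 8 groups (x axis), with the number of collagen reads above each bar. Fibrillar chains take 60.1% to 62.9% in the GFP+ thyroid groups and 23.1% to 48.1% in the GFP- thyroid groups, where type IV takes 18.1% to 45.4%. The salivary GFP+ bar rests on 21 reads, 15 of them of the fibrillar chain Col11a1, and the salivary GFP- bar on 118, 72 of them of Col11a1.

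The first comparison was GFP+ against GFP- thyroid cells, averaged over the 3 ages. A filter on low counts left 1900 genes, 13 of them collagen chains, which hold 92.9% of all collagen reads. Of these 13, edgeR's quasi-likelihood test called 9 higher and 1 lower in GFP+ cells at a Benjamini-Hochberg adjusted p under 0.05, against 20.2% of all 1900 genes called, 11.4% higher and 8.79% lower. The list itself was not tested. Their median log2 fold change was 1.89, and that of all genes tested was -0.08. The chains that rose were the 5 tested fibrillar chains, the 3 tested type VI chains and Col14a1; the chain that fell was Col13a1; Col4a1, Col4a2 and Col15a1 did not pass. When the 5 thyroid libraries under 10000 reads were set aside, 4 of the 13 chains had no overlap in CPM between the 8 GFP+ and the 9 GFP- libraries, against 3.47% of all genes tested: Col1a1, Col3a1 and Col5a3 above (2.42% of all genes) and Col13a1 below (1.05%). On the GFP- libraries alone Col1a1, Col5a2, Col5a3 and Col6a1 would not have passed the filter, nor Col13a1 on the GFP+ libraries alone. The filter thus favored chains high in 1 fraction. These counts, the median and the lack of overlap, and the counts at each age below, cannot be read as a result about collagen chains as a whole.

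**Figure D2:**
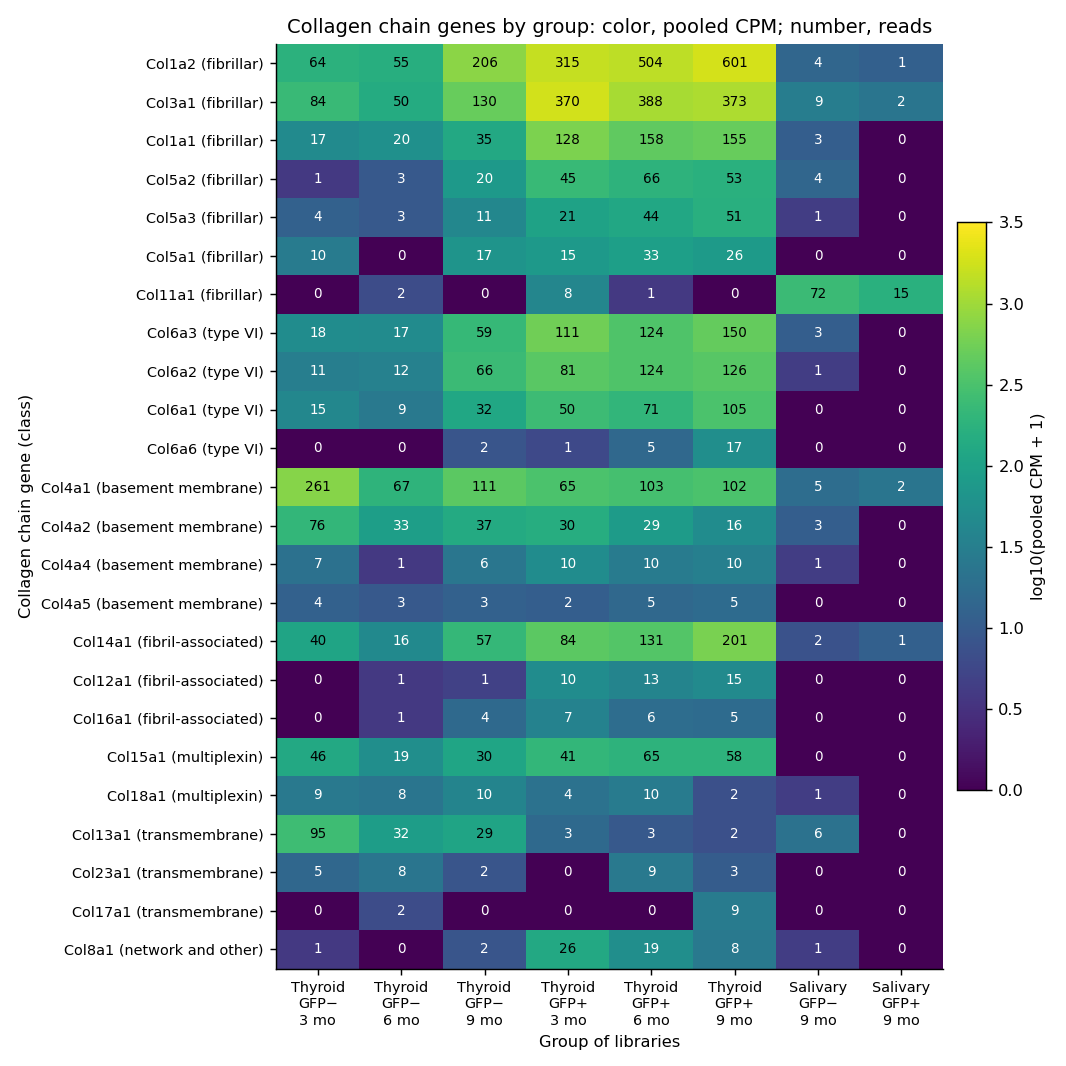
Pooled CPM (color, log10 of CPM + 1) of the 24 collagen chain genes with at least 10 reads (y axis, by class) in each of the 8 groups (x axis), with the number of reads printed in each cell. The fibrillar, type VI and Col14a1 rows are brighter in the GFP+ thyroid columns, the Col13a1 row is brighter in the GFP- thyroid columns (95, 32 and 29 reads against 3, 3 and 2), and Col11a1 has most of its reads in the salivary columns.

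Col1a2 and Col1a1 encode the chains of type I collagen, the main protein of the fibrils in most connective tissue. Col1a2 was the most abundant member, with 1750 reads. In GFP- thyroid libraries it stood at 161, 165, 107 and 244 CPM at 3 months, at 436, 413, 115 and 139 CPM at 6 months and at 0, 498 and 1075 CPM at 9 months, in order of replicate number. In GFP+ thyroid libraries it stood at 1280.4, 848, 1395 and 1612 CPM at 3 months, at 1904, 2333, 839 and 0 CPM at 6 months and at 1505, 2044 and 1802 CPM at 9 months. At 3 and at 9 months every GFP+ library was above every GFP- library, and at 6 months all but GFP+ replicate 4, which had 507 reads, were. Over the ages the fractions overlapped, since GFP- replicate 3 at 9 months exceeded some GFP+ libraries of 3 and 6 months. Averaged over the ages, Col1a2 was higher in GFP+ cells by a log2 fold change of 2.04 (SE 0.43, adjusted p = 3.35e-05, edgeR).

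Col1a1 had 516 reads. It stood at 10.7, 73.4, 0 and 51.3 CPM in GFP- cells at 3 months, at 235, 0, 33.5 and 52.0 CPM at 6 months and at 0, 90.5 and 177 CPM at 9 months. In GFP+ cells it stood at 0, 169.6, 697 and 652 CPM, at 517, 839, 256 and 0 CPM, and at 246, 435 and 756 CPM. Both GFP+ libraries at 0 had fewer than 10000 reads, and all other GFP+ libraries were above the GFP- libraries of their age. Averaged over the ages Col1a1 rose by 2.46 on the log2 scale (SE 0.40, adjusted p = 4.46e-08, edgeR). Col1a1 gave 28.9% (24.7 to 33.4) of the summed Col1a1 and Col1a2 reads in GFP+ cells at 3 months and 14.5% (10.3 to 19.6) in GFP- cells at 9 months, the highest and lowest of the 6 thyroid groups. Type I collagen is built mostly from both chains together, and a 3′ read count does not measure their protein ratio.

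Col3a1 encodes the chain of type III collagen, which is found in the fibrils of distensible tissue. Its GFP- libraries stood at 150.1, 287, 71.5 and 269 CPM at 3 months, at 536, 206, 86.1 and 129.9 CPM at 6 months and at 170.0, 362 and 622 CPM at 9 months. Its GFP+ libraries stood at 3201, 169.6, 1288 and 1943 CPM, at 1739.7, 1468, 655 and 0 CPM and at 783, 1275 and 1221 CPM. In libraries of at least 10000 reads, every GFP+ value was above every GFP- value, the nearest being 655 CPM against 622 CPM. Col3a1 rose by 1.86 (SE 0.41, adjusted p = 9.42e-05, edgeR).

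The promoters of Col1a2 and Col3a1, which rose together, and that of Col13a1, which moved the other way, are printed below with their matches to short promoter motifs. Each run is the 250 bases before the gene's start, 5′ to 3′ on the gene's strand, from the RefSeq table of build GRCm38.p6, with matches in capitals. The motifs searched, on either strand, were the TATA box (letters TATAAA), the CCAAT box (letters CCAAT) and the GC box (letters GGGCGG). Col1a2 lies at chr6:4505368-4505617 (plus strand), Col3a1 at chr1:45311288-45311537 (plus) and Col13a1 at chr10:61979109-61979358 (minus).
Col1a2: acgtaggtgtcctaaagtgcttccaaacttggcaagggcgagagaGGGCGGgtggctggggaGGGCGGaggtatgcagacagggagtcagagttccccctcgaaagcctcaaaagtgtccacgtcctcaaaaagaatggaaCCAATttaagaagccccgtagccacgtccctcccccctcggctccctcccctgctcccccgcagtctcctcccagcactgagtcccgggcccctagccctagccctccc
Col3a1: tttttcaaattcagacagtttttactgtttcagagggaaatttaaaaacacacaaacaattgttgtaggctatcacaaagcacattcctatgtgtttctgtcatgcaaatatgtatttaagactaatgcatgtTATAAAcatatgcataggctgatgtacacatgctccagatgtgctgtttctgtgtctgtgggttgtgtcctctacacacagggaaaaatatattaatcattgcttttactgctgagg
Col13a1: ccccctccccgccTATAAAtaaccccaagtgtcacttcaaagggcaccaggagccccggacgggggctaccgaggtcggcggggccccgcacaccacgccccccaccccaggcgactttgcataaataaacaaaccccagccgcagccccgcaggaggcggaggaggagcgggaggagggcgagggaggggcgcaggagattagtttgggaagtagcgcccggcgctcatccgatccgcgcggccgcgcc
Col1a2 held the GC box GGGCGG and the CCAAT box, and both other genes held TATAAA only. That match began at position -117 from the gene's start in Col3a1 and at -237 in Col13a1. Whether either match acts as a TATA box was not tested. Of the 44 members, 35 had a promoter in the table. In the 250 bases before the start, GGGCGG was found in 21 of the 35 (60.0%) and in 32.7% of all 32851 promoters. CCAAT was found in 13 (37.1%) and in 33.9%, and TATAAA in 5 (14.3%) and in 12.4%. These are letter matches in a window, and binding was not measured. The members were counted by gene, and all promoters by promoter entry. The percentages are thus not in like units, and no excess among the members can be read from them.

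Col5a2 and Col5a3 encode chains of type V collagen, which is built into type I fibrils and helps to set their width. Col5a2 had the largest rise of the 13 chains, 3.27 (SE 0.52, adjusted p = 3.33e-08, edgeR). Its reads in GFP- cells numbered 1 at 3 months, 3 at 6 months and 20 at 9 months, and in GFP+ cells 45, 66 and 53. As a ratio of summed CPM, that is 81.2-fold at 3 months (95% interval 13.8 to 3278, counting error only) and 22.1-fold at 6 months (7.24 to 110). Without replicate 4 of the GFP+ thyroid at 3 months, which held 43 of the 45 reads there, the averaged log2 fold change of Col5a2 was 2.68. Col5a3 rose by 2.62 (SE 0.54, adjusted p = 2.80e-05, edgeR), and by 3.55 without replicate 3 of the GFP- thyroid at 6 months, the library with all 3 of its reads in that group. In libraries of at least 10000 reads Col5a3 ran from 81.8 to 176 CPM in GFP+ cells and from 0 to 45.2 CPM in GFP- cells. Col5a1, the third chain of type V, had 101 reads and did not pass the filter: its reads numbered 10, 0 and 17 in GFP- cells and 15, 33 and 26 in GFP+ cells, at least 11.1-fold more in CPM in GFP+ cells at 6 months.

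Col6a1, Col6a2 and Col6a3 encode the 3 classical chains of type VI collagen, which are assembled in equal parts. All 3 rose, Col6a1 by 1.89 (SE 0.41, adjusted p = 7.27e-05), Col6a2 by 2.22 (SE 0.41, adjusted p = 2.83e-06) and Col6a3 by 1.99 (SE 0.40, adjusted p = 1.16e-05), all by edgeR. Col6a3 stood at 32.2, 36.7, 107 and 76.9 CPM in GFP- cells at 3 months, at 201, 206, 19.1 and 52.0 CPM at 6 months and at 339.9, 189 and 246 CPM at 9 months. Among GFP+ libraries it stood at 0, 0, 1556 and 469 CPM, at 435, 472, 261 and 0 CPM and at 215, 546 and 500.0 CPM. At 9 months the fractions overlapped, with GFP- replicates 1 and 3 above GFP+ replicate 1. Without replicate 4 of the GFP+ thyroid at 3 months, Col6a1 no longer passed (1.27, adjusted p = 0.135, edgeR).

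Col6a2 in GFP- cells stood at 21.4, 36.7, 0 and 38.5 CPM at 3 months, at 67.0, 206, 9.57 and 60.6 CPM at 6 months and at 170.0, 234 and 261 CPM at 9 months. In GFP+ cells it stood at 0, 0, 429 and 417 CPM, at 470.2, 537, 199 and 7889.6 CPM and at 230.4, 358 and 581 CPM. The value of 7889.6 CPM is 4 reads in a library of 507. The other GFP+ libraries of 6 months lay above or within the GFP- range. Col6a1 stood at 85.8, 36.7, 0 and 12.8 CPM, at 67.0, 206, 19.1 and 17.3 CPM and at 0, 75.4 and 169 CPM in GFP- cells. The GFP+ libraries stood at 0, 0, 107 and 274 CPM, at 317, 314.5, 102 and 0 CPM and at 154, 323 and 465 CPM, so that at 9 months replicate 1 lay within the GFP- range. Of the chains that replace the third chain in some tissues, Col6a6 had 0, 0 and 2 reads in GFP- cells and 1, 5 and 17 in GFP+ cells, Col6a4 had 2 and Col6a5 had none.

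Col14a1 encodes type XIV collagen, which binds to the surface of type I fibrils. Its GFP- libraries stood at 96.5, 110.1, 143 and 115 CPM at 3 months, at 33.5, 206, 57.4 and 17.3 CPM at 6 months and at 339.9, 211 and 207 CPM at 9 months. Its GFP+ libraries stood at 0, 0, 590.2 and 417 CPM, at 447, 773, 174 and 0 CPM and at 568.3, 699 and 523 CPM. At 9 months all 3 GFP+ libraries were above all 3 GFP- libraries. Col14a1 rose by 1.81 (SE 0.39, adjusted p = 6.24e-05, edgeR). Of its relatives, Col12a1 had 0, 1 and 1 reads in GFP- cells and 10, 13 and 15 in GFP+ cells, and Col16a1 had 0, 1 and 4 against 7, 6 and 5. In the fit without a filter on low counts, Col12a1 (3.49, adjusted p = 0.00185), Col8a1 (3.49, adjusted p = 0.00128) and Col5a1 (2.36, adjusted p = 0.0217) were called higher as well, by edgeR. Col8a1, a short-chain network collagen of vessel walls, had 1, 0 and 2 reads in GFP- cells and 26, 19 and 8 in GFP+ cells.

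**Figure D3:**
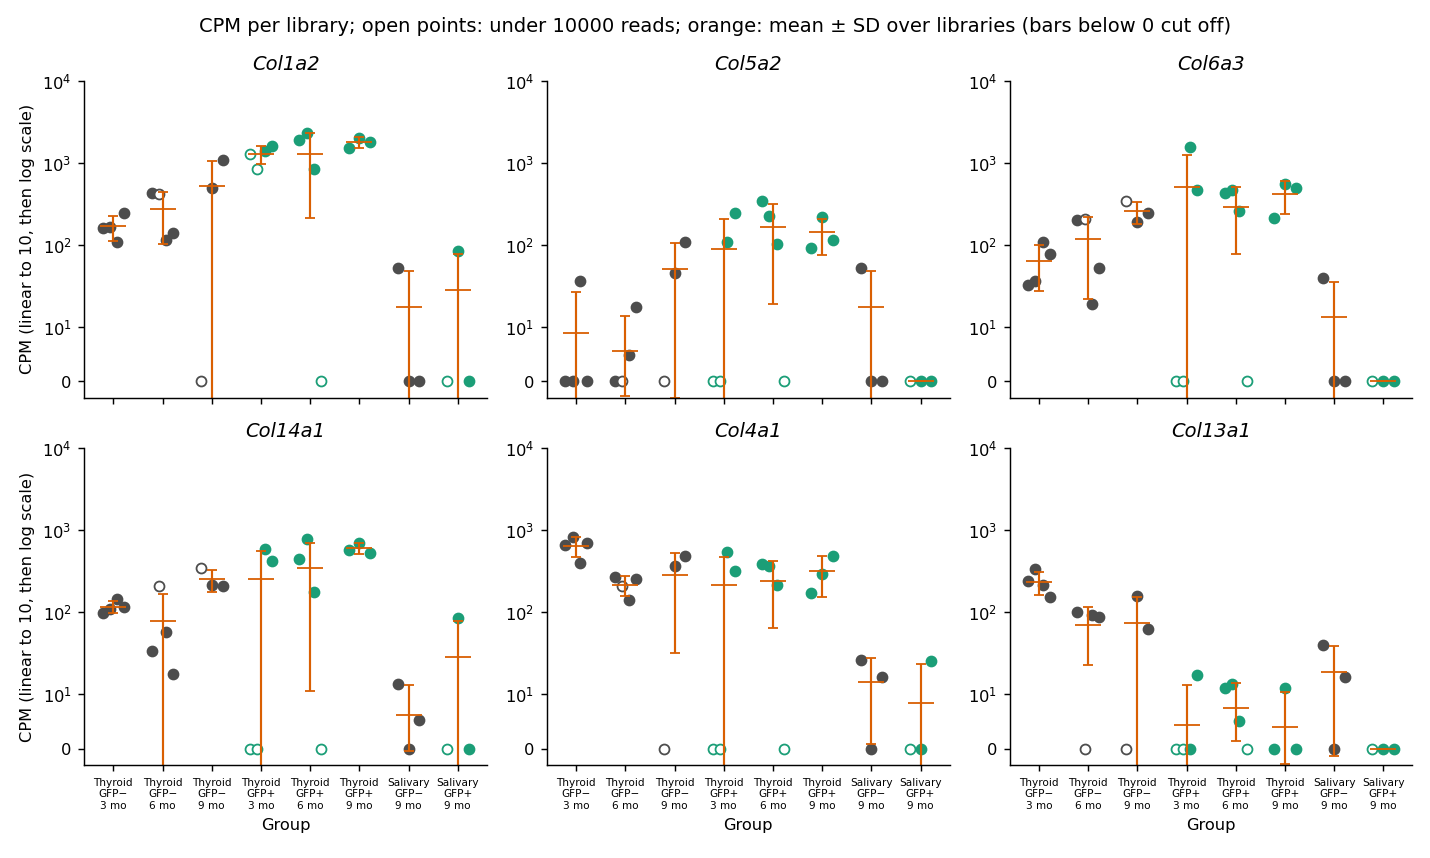
CPM of 6 collagen chain genes (y axis, linear to 10 and logarithmic above) in every library of the 8 groups (x axis); open points are libraries under 10000 reads, and orange marks are the mean with SD over libraries. The GFP+ thyroid points of Col1a2, Col5a2, Col6a3 and Col14a1 mostly lie above the GFP- points, those of Col4a1 share their range, and those of Col13a1 do not exceed 17.1 CPM.

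Col4a1 and Col4a2, the chains of the common type IV collagen of vessel and epithelial basement membranes, did not pass the test between fractions. Col4a1 stood at 665, 813, 393 and 705 CPM in GFP- cells at 3 months, at 268, 206, 139 and 251 CPM at 6 months and at 0, 369.5 and 476 CPM at 9 months. In GFP+ cells it stood at 0, 0, 537 and 314.4 CPM, at 388, 367, 215 and 0 CPM and at 169, 288 and 488 CPM. The ranges overlapped at 6 and 9 months, and at 3 months GFP+ replicate 3 lay within the GFP- range. The averaged log2 fold change was -0.54 for Col4a1 (SE 0.37, adjusted p = 0.372) and -0.96 for Col4a2 (SE 0.40, adjusted p = 0.0774), both by edgeR. Col4a2 was called lower without GFP- replicate 3 at 3 months (-1.03, adjusted p = 0.0477), GFP+ replicate 4 at 3 months (-1.68, adjusted p = 0.0118) or GFP+ replicate 1 at 6 months (-1.21, adjusted p = 0.0289), by edgeR. Col4a2 stood at 225, 281, 35.8 and 103 CPM, at 168, 0, 110.0 and 43.3 CPM and at 339.9, 136 and 131 CPM in GFP- cells. Among GFP+ libraries it stood at 0, 0, 53.7 and 166 CPM, at 188, 65.5, 40.9 and 0 CPM and at 61.4, 47.0 and 46.5 CPM. At 9 months all 3 GFP+ values were below the GFP- values, and at 3 and 6 months the fractions overlapped.

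Col4a1 and Col4a2 lie head to head and share a promoter region. In the RefSeq annotation of GRCm38.p6 their starts are 21 bases apart, and the plus strand of the run that joins them at chr8:11312805-11312826 is printed to show how close the 2 starts are, with no part in capitals: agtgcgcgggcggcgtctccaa. Col4a1 gave between 67.0% (56.9 to 76.1, GFP- at 6 months) and 86.4% (78.9 to 92.0, GFP+ at 9 months) of the summed Col4a1 and Col4a2 reads in the thyroid groups. The other type IV chains were rare: Col4a4 had 7, 1 and 6 reads in GFP- cells and 10, 10 and 10 in GFP+ cells, Col4a5 had 4, 3 and 3 against 2, 5 and 5, and Col4a3 and Col4a6 had 6 reads each in all. Pairs of members that neighbour each other in the same annotation include Col3a1 with Col5a2, both of which rose.

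Col13a1, which encodes a transmembrane collagen found at cell contacts, was the only one of the 13 chains called lower in GFP+ cells. It stood at 236, 336, 215 and 154 CPM in GFP- cells at 3 months, at 100.6, 0, 90.9 and 86.6 CPM at 6 months and at 0, 158 and 61.4 CPM at 9 months, where both zeros are libraries under 10000 reads. In GFP+ cells it stood at 0, 0, 0 and 17.1 CPM, at 11.8, 13.1, 5.11 and 0 CPM and at 0, 11.7 and 0 CPM. In libraries of at least 10000 reads the highest GFP+ value, 17.1 CPM, was below the lowest GFP- value, 61.4 CPM. The averaged log2 fold change was -3.83 (SE 0.56, adjusted p = 6.48e-10, edgeR), -4.87 without replicate 4 of the GFP+ thyroid at 3 months and -4.52 without replicate 2 of the GFP+ thyroid at 9 months. Of the other transmembrane collagens, Col23a1 had 5, 8 and 2 reads in GFP- cells and 0, 9 and 3 in GFP+ cells.

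Col15a1 and Col18a1 encode the multiplexins, which lie between basement membranes and fibrils and whose ends release antiangiogenic fragments. Col15a1 stood at 150.1, 104, 179 and 128 CPM in GFP- cells at 3 months, at 201, 0, 19.1 and 78.0 CPM at 6 months and at 170.0, 113 and 108 CPM at 9 months. The GFP+ libraries stood at 0, 169.6, 161 and 211 CPM, at 329, 157, 128 and 0 CPM and at 154, 147 and 267 CPM. The fractions overlapped at every age, and the averaged log2 fold change was 0.59 (SE 0.39, adjusted p = 0.344, edgeR). Col15a1 was called higher when only library totals were used for scaling, a choice that moved the median log2 fold change of all genes from -0.08 to 0.24. The 10 chains named above were called under that scaling too. Col18a1 had 9, 8 and 10 reads in GFP- cells and 4, 10 and 2 in GFP+ cells.

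Markers of other cell types moved with these chains. Of 10 fibroblast markers 9 were tested and all 9 were higher in GFP+ cells (median log2 fold change 2.02), and their summed CPM ran from 1180 to 8387 over the GFP- and from 0 to 19954 over the GFP+ thyroid libraries, with none of the 10 at 0 in any thyroid group. Of 9 endothelial markers 8 were tested and 7 were lower (median -3.37), with sums from 1927 to 8340 CPM in GFP- and from 0 to 1921 CPM in GFP+ libraries; the largest falls were those of Esm1 (-6.72), Kdr (-4.85), Plvap (-4.08) and Emcn (-3.44), and Esm1 had no read in GFP+ cells at 3 months. Among fibroblast markers Bgn (3.08), Thy1 (2.69), Dpt (2.22) and Pdgfra (2.26) had the lowest adjusted p. Of 9 pericyte and smooth muscle markers 5 were tested and 3 were higher (Acta2 2.51, Tagln 2.70, Abcc9 1.72). Of 10 thyroid follicular markers 5 were tested and 3 were lower (Tg -2.22, Iyd -1.96, Dio1 -2.30); Slc26a4 was at 0 in every thyroid group, and Pax8 and Tshr in GFP+ cells at 9 months, where the markers summed to 454 CPM. Parathyroid markers, led by Pth, summed to between 2800 and 60396 CPM in the 6 thyroid groups, with 3 of 3 tested lower, and C-cell markers to between 1189 and 26465 CPM, with 3 of 3 lower. All 4 tested red cell markers were lower. The part of these cell types in the collagen result was not tested.

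Collagen reads were also set against the reads of these markers. Fibrillar collagen reads per fibroblast-marker read were 0.285, 0.214 and 0.210 in GFP- cells and 0.340, 0.263 and 0.229 in GFP+ cells at 3, 6 and 9 months. Type VI reads per fibroblast-marker read ran from 0.0611 to 0.0909 over the 6 groups. Type IV reads per fibroblast-marker read were 0.560, 0.170 and 0.0790 in GFP- cells and 0.0404, 0.0326 and 0.0243 in GFP+ cells. Per endothelial-marker read, type IV stood at 0.127, 0.113 and 0.180 in GFP- cells and at 0.632, 1.12 and 1.40 in GFP+ cells. Col13a1 per endothelial-marker read was 0.0342, 0.0341 and 0.0330 in GFP- cells and 0.0175, 0.0227 and 0.0208 in GFP+ cells, where it rests on 3, 3 and 2 reads. These ratios are descriptions of summed reads and were not tested.

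**Figure D4:**
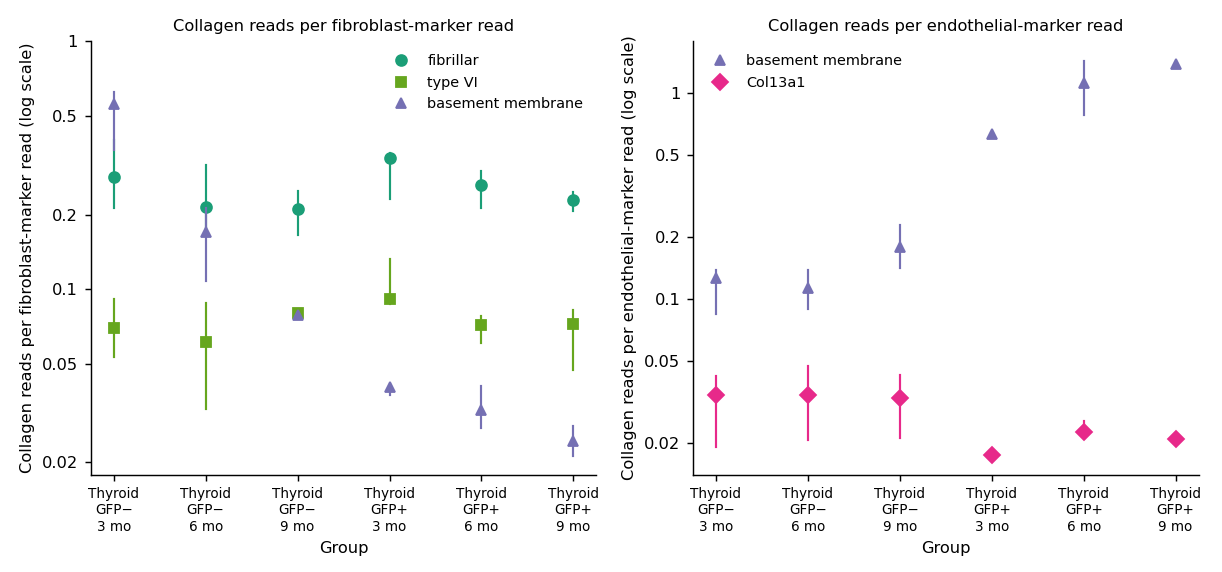
Collagen reads per fibroblast-marker read (left) and per endothelial-marker read (right) in the 6 thyroid groups (x axis), on logarithmic y axes; points are ratios of summed reads and lines span the libraries with at least 30 marker reads. Against fibroblast markers the fibrillar ratio stays between 0.210 and 0.340 and the type VI ratio between 0.0611 and 0.0909, whereas the type IV ratio in GFP+ cells is below that in GFP- cells against fibroblast markers (0.0243 to 0.0404) and above it against endothelial markers (0.632 to 1.40).

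The genes that process and bind collagen were described from lists of the pathway. Of 19 genes for folding, hydroxylation and export of the chains, 8 were tested and 0 were called (median log2 fold change 0.09); at an unadjusted p under 0.05 P4ha1 alone passed (0.87, adjusted p = 0.130, edgeR). The 2 with most reads, Sparc and the collagen chaperone Serpinh1, were at -0.29 and 0.73. Of 14 genes for cleavage and cross-linking outside the cell, 3 were tested and all 3 rose: Pcolce by 3.05 and Pcolce2 by 1.423, which enhance removal of the C-terminal propeptide, and Loxl1 by 1.74, a lysyl oxidase that cross-links. Of 18 proteins that lie with collagen in the matrix, 13 were tested and 11 rose (median 1.85), among them Bgn by 3.08, Fbn1 by 2.55, Dpt by 2.22 and Lum by 2.02; Lamb1 (0.61) and Hspg2 (0.53) did not pass. Dcn, Lum, Bgn and Dpt stand in the fibroblast list too. Of 9 receptors 3 were tested and Ddr2, a receptor kinase for fibrillar collagen, rose by 1.86, while Ddr1 was at -0.74 and Itgb1 at 0.11. Of 12 genes for collagen breakdown and its inhibitors 4 were tested and Mmp2, a gelatinase, rose by 1.23, while Mmp14 was at 0.84, Timp2 at 0.95 and Timp3 at -1.05.

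Age by age, the same fit gave fewer calls at 3 and at 9 months and as many at 6 months, and the 3 contrasts use different libraries. At 3 months 6 of 13 chains were higher and 1 was lower (9.74% of all genes were called, 5% higher and 4.74% lower; median log2 fold change 2.11 against -0.26 for all genes). At 6 months 9 were higher and 1 was lower (7.11% of all genes, 5.26% higher and 1.84% lower; median 2.46 against -0.08). At 9 months none was higher and Col13a1 was lower (1.89% of all genes, 0.263% higher and 1.63% lower; median 0.91 against 0.11), while 4 chains were higher and 2 lower at an unadjusted p under 0.05 by edgeR. DESeq2 called 6 chains higher at 3 months, 4 higher at 6 months (Col1a2, Col3a1, Col6a2 and Col14a1) and 0 at 9 months, and none lower at any age. Without a filter on low counts, edgeR called Col13a1 alone at 3 months, Col5a1 alone at 6 months and 0 chains at 9 months. With a replicate block, which takes same-numbered libraries of an age as pairs, it called Col13a1 alone at 3 months and 0 chains at 6 and at 9 months. Whether these libraries are pairs is not known. The 9-month contrast rests on 3 libraries per fraction, the others on 4. Libraries that moved the first 2 counts by over 1.5 times were GFP+ replicates 3 and 4 at 3 months (4 and 3 chains without them), and GFP- replicates 3 and 4 and GFP+ replicate 2 at 6 months (4 chains without each).

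Col1a1 was called at 3 months (3.09, SE 0.69, adjusted p = 0.000708, edgeR), and passed without each single library in turn, at 2.42 without GFP+ replicate 4 and at 3.73 without GFP- replicate 2. Col5a2 stood at 4.89 at 3 months (SE 1.04, adjusted p = 0.000311), at 3.11 (adjusted p = 0.207, edgeR) without GFP+ replicate 4, at 4.17 without GFP- replicate 2 and at 6.58 without GFP- replicate 3. At 6 months Col5a2 was at 4.01 (SE 0.89, adjusted p = 0.000574, edgeR) and at 4.91 without GFP- replicate 4. Col13a1 was called lower at each age: -4.28 at 3 months (SE 0.96, adjusted p = 0.000708), -3.36 at 6 months (SE 0.92, adjusted p = 0.00727) and -3.86 at 9 months (SE 1.01, adjusted p = 0.00863), all by edgeR. DESeq2 put it at -3.03 (adjusted p = 0.0984), -2.63 (adjusted p = 0.299) and -3.91 (adjusted p = 0.501) and called it at none of the ages. Without GFP+ replicate 4 it was at -7.42 at 3 months, and without GFP+ replicate 3 at 6 months it was at -3.05 (adjusted p = 0.0501, edgeR). At 9 months its call was lost without GFP- replicate 2 (-2.88), GFP- replicate 3 (-3.998), GFP+ replicate 1 (-3.53), GFP+ replicate 2 (-5.995) or GFP+ replicate 3 (-3.45).

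Col1a2 (2.21, SE 0.72, adjusted p = 0.0279) and Col3a1 (2.11, SE 0.68, adjusted p = 0.0259) passed narrowly at 3 months by edgeR. The call of Col1a2 was lost without any 1 of 12 libraries (GFP- replicates 1 to 4 and GFP+ replicates 3 and 4 at 3 months, and all 6 thyroid libraries of 9 months), with an adjusted p of up to 0.147 by edgeR. That of Col3a1 was lost without any 1 of 10 (GFP- replicates 1, 3 and 4 and GFP+ replicates 3 and 4 at 3 months, and the 9-month libraries except GFP- replicate 1), with an adjusted p of up to 0.224 by edgeR. Without GFP+ replicate 4 Col1a2 stood at 1.60 and Col3a1 at 1.29. Col6a2 (2.97, SE 0.75, adjusted p = 0.0025, edgeR) was at 2.17 and not called without that library, and Col6a3 (2.96, SE 0.69, adjusted p = 0.00131, edgeR) was at 1.96 and not called without GFP+ replicate 3.

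At 6 months Col14a1 stood at 2.86 (SE 0.71, adjusted p = 0.00281, edgeR), at 3.52 without GFP- replicate 3 and at 2.27, not called, without GFP+ replicate 2. Col6a2 stood at 3.03 (SE 0.74, adjusted p = 0.00226, edgeR), at 2.40, not called, without GFP- replicate 3 and at 3.63 without GFP- replicate 4. Col5a3 stood at 3.53 (SE 0.97, adjusted p = 0.00784, edgeR), at 6.33 without GFP- replicate 3 and at 3.05, not called, without GFP- replicate 4. Col1a1, Col1a2 and Col6a1 (2.46, 2.52 and 2.57) were each lost without GFP- replicate 3 or 4 or GFP+ replicate 2, Col1a2 also without GFP+ replicate 2 at 9 months and Col6a1 also without GFP+ replicate 1. Col3a1 and Col6a3 (2.20 and 2.16) were lost without those 4 libraries of 6 months and without each thyroid library of 9 months except GFP- replicate 1. Without GFP- replicate 1 Col1a1, Col3a1 and Col6a3 stood at 3.14, 2.91 and 2.82.

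**Figure D5:**
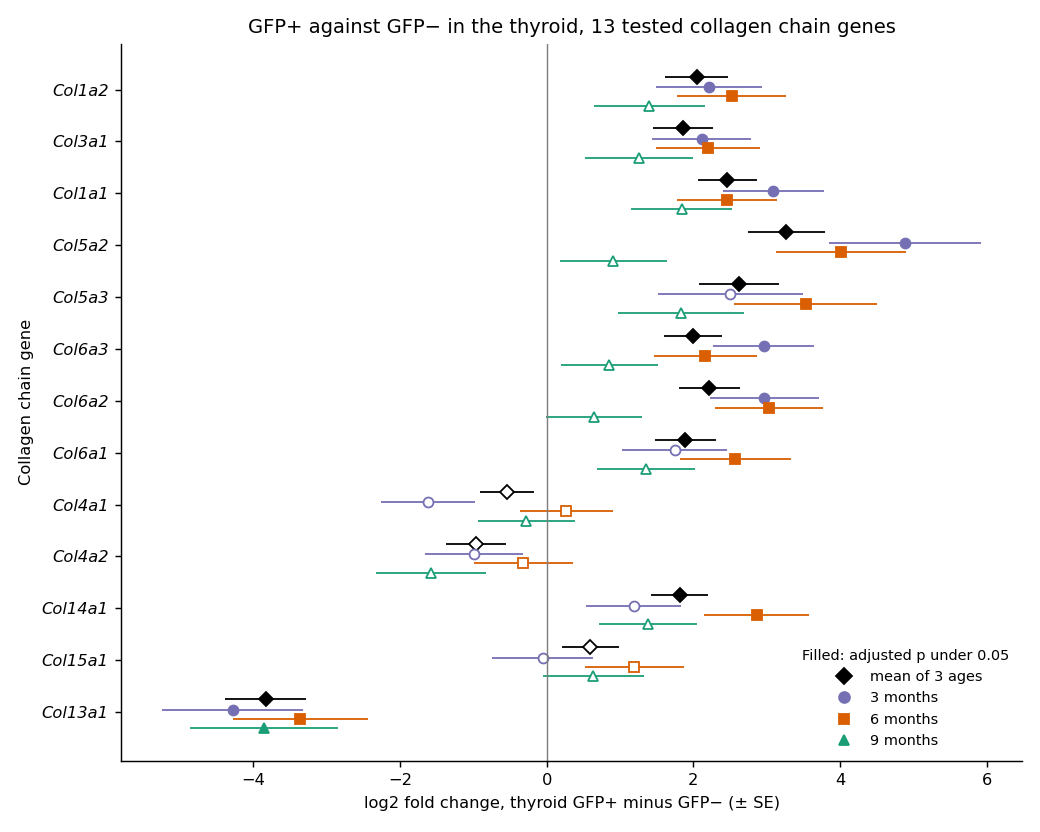
Log2 fold change of GFP+ minus GFP- thyroid cells with its SE (x axis) for the 13 tested collagen chain genes (y axis), for the mean of the 3 ages and for each age; filled symbols have an adjusted p under 0.05. The 9-month triangles of the fibrillar and type VI chains lie to the left of the 3- and 6-month symbols and are all open; Col13a1 is filled throughout.

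Whether the difference between fractions changed with age was tested in the same fit, by an F test over the 3 ages together. Its p-value is for any change among the ages, not for 9 against 3 months. The same holds for the tests of age within a fraction. No chain was called (0.158% of all genes were), 2 chains passed at an unadjusted p under 0.05 by edgeR and 0 by DESeq2. The lowest p was that of Col5a2 (0.00259, adjusted p = 0.329, edgeR), whose log2 fold change fell by 3.98 from 3 to 9 months. Within GFP+ cells no chain was called for age (0 called by edgeR and by DESeq2, 0 at an unadjusted p under 0.05, 1.58% of all genes called). The age contrasts of the fractions share a fit, and a difference between them was not shown.

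Within GFP- cells 2 of 13 chains changed over the ages, against 1.53% of all genes called. By edgeR's F test over the 3 ages together, the adjusted p was 0.0289 for Col6a2 and 0.0434 for Col5a2. From 3 to 9 months Col6a2 rose by 2.85 on the log2 scale and Col5a2 by 4.002. Reads of Col5a2 were 1 in 362793 at 3 months and 20 in 268697 at 9 months. Neither of the 2 chains was called by DESeq2. Both calls were lost without GFP- replicate 1, 2 or 4 at 3 months, 3 or 4 at 6 months, 2 or 3 at 9 months, or GFP+ replicate 1, 2 or 3 at 9 months, and that of Col5a2 also without GFP+ replicate 1 at 6 months; over these the adjusted p ran from 0.0536 to 0.696. Fibroblast markers in GFP- cells summed to 1742, 1732 and 7447 CPM at 3, 6 and 9 months and endothelial markers to 7657, 2614 and 3275 CPM. Their part in the change was not tested.

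Salivary gland cells held few collagen reads, 118 in GFP- and 21 in GFP+ libraries. Summed, all collagens stood at 392 and 228 CPM, against 3256 and 6535 CPM in the thyroid fractions of the same age. Of the salivary reads, 72 in GFP- and 15 in GFP+ cells were those of Col11a1, 70 and 15 of them in replicate 3. In the fit of the 12 libraries at 9 months 974 genes and 11 chains were tested. No chain was called between salivary GFP+ and GFP- cells (0 called by edgeR and by DESeq2, 0 at an unadjusted p under 0.05, and 0% of all genes called), and none was called for a difference in this contrast between the glands (also 0, 0, 0 and 0%). These libraries held too few reads for this count of 0 to show that the fractions were alike. Salivary acinar markers summed to 19981 and 8575 CPM, although Smr3a was at 0 in both fractions and Amy1 and Muc19 in GFP+ cells.

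Between glands, 7 of 11 chains were higher in thyroid than in salivary GFP+ cells (14.4% of all genes called, 9.34% higher and 5.03% lower; median log2 fold change 6.11 against 1.15 for all genes). They were Col1a1, Col1a2, Col3a1, Col6a1, Col6a2, Col6a3 and Col14a1. All 11 tested chains passed the filter on low counts through thyroid libraries, since no salivary library held more than 7 reads of any. Col11a1, with most of its reads in the salivary gland, did not pass. The filter thus favored chains high in the thyroid. In both fractions the direction of the counts and medians cannot be read as a result about collagen chains as a whole. In the salivary libraries Col1a2 stood at 52.2, 0 and 0 CPM in GFP- cells and at 0, 84.8 and 0 CPM in GFP+ cells. Col3a1 stood at 91.4, 55.4 and 0 CPM and at 0, 84.8 and 12.6 CPM. All of these were below every thyroid library of 9 months of the same fraction, except the GFP- thyroid replicate 1 at 0 for Col1a2. In GFP+ cells the thyroid was higher by 5.33 for Col1a2 (SE 1.38, adjusted p = 0.00276, edgeR) and by 3.72 for Col3a1 (SE 1.16, adjusted p = 0.0186, edgeR). Without salivary replicate 2 Col1a2 was at 9.74 and Col3a1 at 4.51, not called, and without salivary replicate 3 neither was called (4.53 and 3.83); Col3a1 was not called without thyroid replicate 2 either (3.57). In GFP- cells 6 of 11 were higher (14.2% of all genes, 9.86% higher and 4.31% lower; median 2.64 against 0.17): Col1a2, Col4a1, Col6a1, Col6a2, Col14a1 and Col15a1. As ratios of summed CPM, thyroid GFP+ cells held at least 14.8-fold more Col1a1, at least 12.03-fold more Col6a2 and at least 14.3-fold more Col6a3 than salivary GFP+ cells, which had no read of them, and thyroid GFP- cells at least 11.96-fold more Col6a1 and at least 11.2-fold more Col15a1 than salivary GFP- cells; these bounds take 3 reads over the group as the floor. Col1a2 had 601 reads against 1 in the GFP+ fractions, a ratio of 172 (95% interval 30.8 to 6808, counting error only).

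These counts between glands moved with single libraries and with the filter. Without a filter on low counts edgeR called none of these chains in either fraction. In GFP+ cells 3 chains were called without thyroid replicate 2 or salivary replicate 2 and 0 without salivary replicate 3. Of the chains named above, only Col1a1 and Col1a2 stayed called without that thyroid library, and only Col1a2 and Col14a1 without salivary replicate 2. In GFP- cells 2 were called without thyroid replicate 2, 1 without thyroid replicate 3 or salivary replicate 2, and 0 without salivary replicate 3. There only Col6a1 of the chains named above stayed called, without thyroid replicate 2, and none did without the other libraries listed. The remaining calls in both fractions were of chains outside the 11. With library totals as the scaling all 11 chains were higher in both fractions, and the median log2 fold change of all genes moved to 3.22 in GFP+ and 2.24 in GFP- cells. Fibroblast markers summed to 232 CPM in salivary GFP- and 174 CPM in salivary GFP+ cells, with Lum, Mfap5 and Thy1 at 0 in both and Bgn and Fbln1 at 0 in GFP+ cells, and their part in the difference was not tested.

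Col11a1, a minor chain of cartilage-type fibrils, had most of its reads in the salivary gland. It had 72 reads in salivary GFP- cells, 2 in replicate 2 and 70 in replicate 3, and 15 in salivary GFP+ cells, all in replicate 3. The thyroid had 2 reads in GFP- cells at 6 months, 8 in GFP+ cells at 3 months and 1 at 6 months, and none at 9 months, so salivary cells held at least 21.4-fold more in the GFP- and at least 17.5-fold more in the GFP+ fraction. Col11a1 did not pass the filter and was called lower in the thyroid in both fractions without the filter (adjusted p = 0.000463 in GFP- and 0.0104 in GFP+ cells, edgeR), on the reads of these 3 libraries. Apart from Sox9, all 7 cartilage markers listed (among them Acan and Matn1) were at 0 in both salivary groups.

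The 14 chains with 1 to 9 reads in all were Col9a1 (9 reads), Col2a1 (7), Col27a1, Col4a3 and Col4a6 (6 each), Col9a2 and Col20a1 (3 each), Col6a4, Col7a1, Col8a2, Col9a3 and Col26a1 (2 each), and Col19a1 and Col25a1 (1 each). A few of them sat in single libraries. Of the thyroid reads of cartilage-type chains in GFP+ cells at 3 months, replicate 4 held all 6 of Col2a1, all 8 of Col11a1, all 3 of Col9a2 and both of Col9a3. Of the 8 cartilage markers listed, Acan, Cnmd, Comp and Matn1 had 4, 4, 4 and 3 reads in that group. Matn3, Hapln1 and Snorc had 0, and the other reads of the 49 in all were those of Sox9. Col17a1, a hemidesmosome collagen of squamous epithelium, had 2 reads in GFP- cells at 6 months and 9 in GFP+ cells at 9 months, 7 in replicate 1 and 2 in replicate 2, where squamous markers summed to between 34.9 and 7879 CPM per library. The part of such cells in these reads was not tested.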

How the data were processed

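RNA from sorted cells was made into QuantSeq 3′ libraries, per the labels' protocols. The authors deposited 28 tables of raw read counts per Ensembl gene, 1 per library. The submitters' processing notes name bcl2fastq and build mm9; the aligner, counter and annotation are not given in the sources used here. Promoters are from RefSeq on GRCm38.p6, another build, so no coordinate of the counts was used. Reads assigned to no feature were 13.3% to 85.8% of a table, and rows of ribosomal RNA held 25.1% to 63.8% of reads in genes.

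Of 47643 gene rows 47224 matched a symbol and 419 did not; summary rows were left out. CPM and edgeR 4.0.16 (quasi-likelihood, robust, TMM factors, filterByExpr by group, R 4.3.3) were computed from the counts. The thyroid fit held 22 libraries in 6 groups, and the 9-month fit 12 libraries in 4 groups; they gave 11 comparisons, with Benjamini-Hochberg adjustment over all genes tested at 0.05. An SE is the log2 fold change divided by the square root of its F. TMM factors ran from 0.574 to 10.7 and from 0.232 to 7.11. The fits were tested on simulated counts at the depths of these libraries. Of 4-fold changes, 91% were recovered in the average over ages and 10%, 26% and 9% at 3, 6 and 9 months. Between glands 4% were recovered in GFP+ and 10% in GFP- cells. Of 2-fold changes, 24% were recovered in the average and at most 1% in the other comparisons simulated. A chain not called at a single age or between glands is thus not shown to be unchanged. Of 36 within-group library pairs none was identical.

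The members and all gene lists were chosen with earlier results of these data known. Every tested chain was named, untested ones from 10 reads on with reads by group, and per-library values were given for up to 3 tested chains of a class. Of other lists, up to 4 called genes by adjusted p were named, or the 2 with most reads where none was called. Alternatives were other scalings, filters, DESeq2 1.42.0, 1 fit of all libraries, leaving out shallow libraries, ribosomal rows or each library, and a replicate block.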

Additional observations from a re-analysis of the deposited data

Results flagged for a closer look

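In 52 groups of 4 libraries of a tested chain, the highest or lowest library was compared with the other 3. By a Dixon's ratio above 0.829, 5 stood apart. That limit marks about 1 in 20 groups by chance only where values are normally distributed with equal spread. Counts near 0 in libraries of uneven depth are not, and 1 library above 0 beside 3 at 0 always has a ratio of 1. No excess over chance can be read from the 5. In GFP- thyroid at 3 months, Col5a2 was at 35.76 CPM in replicate 3, which is 1 read of 27964, and at 0 in the others. In GFP- thyroid at 6 months, Col5a3 was at 14.348 CPM in replicate 3, 3 reads of 209091, and at 0 in the others. In GFP+ thyroid at 6 months, Col6a2 was at 7889.5 CPM in replicate 4, 4 reads of 507, with the next library at 537.3 CPM. In GFP+ thyroid at 3 months, Col13a1 was at 17.147 CPM in replicate 4, 3 reads of 174957, and at 0 in the others. In GFP- thyroid at 6 months, Col13a1 was at 0 CPM in replicate 2, which had 4845 reads, with the next library at 86.633 CPM.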

How the results depend on the processing

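For GFP+ against GFP- thyroid cells averaged over the ages, 10 chains were called, and 10 to 13 under the other scalings, DESeq2, no filter, 1 fit of all libraries, and without shallow libraries or ribosomal rows; without any 1 library 10 or 11 were. A filter of at least 20 counts in 50% of libraries left few chains to test and gave 2 (Col1a2 and Col3a1). That filter gave 3 at 3 months, 2 at 6 months, 0 at 9 months and 1 for age in GFP- cells, and it left no chain in the 9-month fit. The 1 for age was Col4a1, lower at 6 than at 3 months. Without a filter the counts were 1, 1, 0 and 0: Col13a1 at 3 months and, at 6 months, Col5a1, which is not among the 10. Without a filter 1 chain was called in each gland comparison, Col11a1, lower in the thyroid, and 0 of the 7 and 0 of the 6 were kept. DESeq2 gave 4 at 6 months, 0 at 9 months and 0 for age in GFP- cells. For age in GFP- cells library totals gave 4, the fit of all libraries 0, and leaving out libraries under 10000 reads 5. Between glands, library totals gave 11 in GFP+ and 11 in GFP- cells, and DESeq2's size factors 10 in GFP- cells. Leaving out 1 library gave 3 to 8 at 3 months, 4 to 11 at 6 months, 0 to 1 at 9 months, 0 to 2 for age in GFP- cells, 0 to 8 between glands in GFP+ and 0 to 7 in GFP- cells. Between glands these counts include, in some fits, 1 chain called lower in the thyroid. Where no construction shows it, the cause was not tested.

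Values of uncalled chains that changed sign were these. Col15a1 at 3 months (-0.05) was at 0.60 with DESeq2's size factors, 0.53 with library totals, 0.57 by DESeq2, 0.20 without libraries under 10000 reads, and -0.87 to 0.062 without 1 library. Col4a2 at 6 months (-0.32) was at 0.038 with library totals and -1.06 to 0.075 without 1 library. Col4a1 at 6 months (0.27) was at -0.0390 with the stricter filter, and at 9 months (-0.28) at -0.65 to 0.37 without 1 library. Col6a1 at 3 months (1.74) was at -0.14 to 2.55 without 1 library.

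Whether same-numbered libraries pair was not settled. Of 11 thyroid pairs of fractions 3 correlated above 0.1 (r from -0.0893 to 0.351), and of 3 salivary pairs 2 did. The deviations were taken from means of 3 or 4 libraries, some of them shallow, so a low r cannot exclude pairing. With a replicate block the counts were 8 averaged over the ages (Col14a1 and Col6a3 were lost), 1 at 3 months (Col13a1), 0 at 6 months, 0 at 9 months, 0 for age in GFP- cells and 2 between glands in GFP- cells, and Col4a1 at 9 months was at 0.10.

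Depth limits these results: a library of 507 reads resolves 1972 CPM, 14 chains had 1 to 9 reads and 6 had none, and the salivary libraries held 139 collagen reads.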
